A study of Mus musculus with 12 samples.

Results

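The comparison described here sets AHR CKO corpus callosum against WT corpus callosum in mice that had not received cuprizone. It uses 6 of the 12 RNA-seq libraries of the study, 3 labelled AHR CKO and control and 3 labelled WT and control, taken by genotype and treatment label. The corpus callosum is the main bundle of myelinated fibres between the left and right hemispheres. In the AHR CKO mice the aryl hydrocarbon receptor (AHR) is deficient in microglia, per the series design, and no other allele or agent is named for either group. The Cre line, the deleted exons and the age and sex of the mice are not given in the sources used. Nothing there says that the 3 libraries of a group are 3 animals, so a p-value covers the spread among libraries and that spread may be technical. The other 6 libraries are of the same genotypes under cuprizone, a copper chelator that kills oligodendrocytes, and they enter as a shared estimate of the spread and for 1 closing comparison.

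AHR is a ligand-activated transcription factor held in the cytosol by HSP90 and co-chaperones. On binding a ligand, such as a metabolite of tryptophan, it enters the nucleus, pairs with ARNT and switches on genes that include its own repressor Ahrr and the ADP-ribosyltransferase Tiparp. Microglia are the resident macrophages of the brain. They are a minor population of this tissue, and in bulk RNA fewer cells of a type and less RNA per cell cannot be told apart.

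Expression was deposited as FPKM, a fragment count scaled for transcript length and library depth. Totals per control library were 451091 to 503383 FPKM, and the steps between the lowest values gave a rough depth of 12900000 to 13300000 fragments in AHR CKO control and 11400000 to 12300000 in WT control, each read from 11 to 31 genes by a method that can only return 8330000 to 20000000. Libraries correlated at r = 0.985 to 0.992 within AHR CKO control, 0.980 to 0.991 within WT control and 0.966 to 0.983 between genotypes (log2 values of 13220 genes). Markers of oligodendrocytes, astrocytes and microglia were expressed in all 6 libraries. Markers of cortical and striatal neurons were expressed too, and the summed level of the striatal list was 2566, 2261 and 1587 FPKM in AHR CKO control, against 869.8, 1315 and 3593 FPKM in WT control, so that WT control replicate 3 held both the highest striatal level and the lowest myelin level of its group. The Y-linked genes Ddx3y, Uty, Kdm5d and Eif2s3y were expressed in every library. The X-linked Xist was at 0.0627, 0.0180 and 0.00769 FPKM in AHR CKO control and 0.0284, 0.0391 and 0.0138 FPKM in WT control.

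Of 15584 genes, 13220 had at least 1 FPKM in at least 3 of the 6 libraries and were tested with limma on log2(FPKM + 1), a scale that understates the change of low genes. At a Benjamini-Hochberg adjusted p below 0.05, 210 genes (1.59%) were higher and 708 (5.36%) were lower in AHR CKO control than in WT control. Only 26 of the higher and 29 of the lower genes differed by at least 2-fold on this scale. The excess of lower genes followed transcript length. Of the genes with the shortest transcripts (174 to 2003 nt), 123 were higher and 18 lower, and their median log2 difference was 0.18. Of the genes with the longest transcripts (5369 to 123179 nt), 8 were higher and 433 lower (16.5% of them), with a median of -0.24. The genes called higher had a median length of 1804 nt and the genes called lower one of 6225 nt.

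The length trend was a property of whole libraries. The slope of each library's log2 values on log2 transcript length, relative to the mean of all 12 libraries, was 0.0278, -0.0251 and -0.0901 per doubling of length in AHR CKO control, against 0.139, 0.103 and 0.152 in WT control, and the groups did not overlap. It was -0.243, -0.135 and -0.0965 in AHR CKO cuprizone, against 0.0830, 0.0326 and 0.0527 in WT cuprizone. In these libraries genotype and length slope cannot be told apart. The calls of the control comparison were therefore set against a second fit, from which a smooth function of length had been removed in each library. Counts of groups without overlap and calls under cuprizone were left uncorrected. In that fit 27 genes (0.206%) were higher and 37 (0.282%) were lower. Of the 918 genes called in the first fit, 852 were lost and 59 passed both fits in the same direction, 23 higher (0.175% of 13111 genes with a length) and 36 lower (0.275%). These 59, written here as past both fits, had median lengths of 4191 nt (higher) and 3122 nt (lower), and the values of the groups did not overlap for any of them. For comparison, the groups did not overlap for 35.9% of all tested genes, 13.4% higher and 22.5% lower.

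The calls needed nearly all 6 libraries. The first fit gave 11 higher and 6 lower genes without AHR CKO replicate 2, 3 and 1 without AHR CKO replicate 3, 5 and 3 without WT replicate 1, and 12 and 5 without WT replicate 2. It gave 173 and 621 without AHR CKO replicate 1, and 216 and 715 without WT replicate 3. Of the 59 genes, 50, 15 and 4 kept their first-fit call without AHR CKO replicates 1, 2 and 3, and 7, 10 and 53 without WT replicates 1, 2 and 3. All 59 kept their direction and an unadjusted p below 0.05 in each of these fits. Their direction could not change, because their groups do not overlap, and the 59 were chosen from these same libraries. Single calls that were lost are given with the genes.

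**Figure D1:**
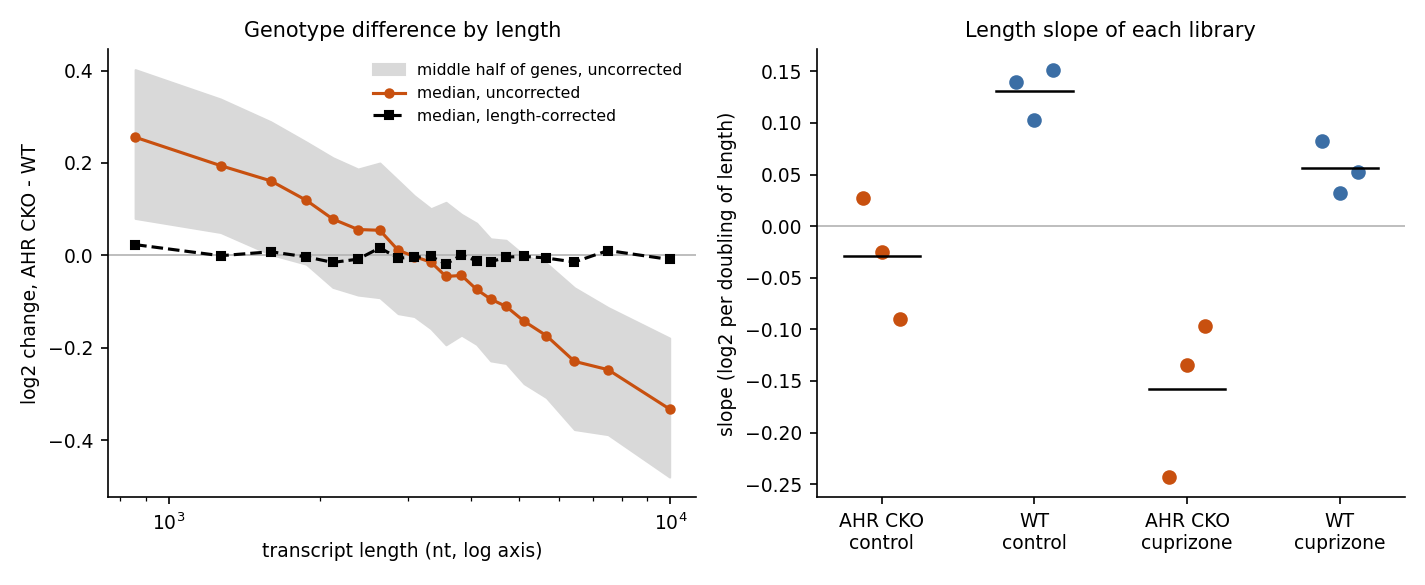
Left, median log2 difference (AHR CKO control minus WT control) in 20 bins of transcript length on a log axis, before (orange, with the interquartile range of genes in grey) and after (black) removal of the length trend. Right, slope of each library on length in log2 per doubling, with group means as bars: all 3 AHR CKO control libraries lie below all 3 WT control libraries, and after correction the medians on the left stay near 0.

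No difference in the deleted gene was called at the level of whole tissue. Ahr (chromosome 12, 35497974 to 35535038, GRCm38) was at 1.79, 1.41 and 2.07 FPKM in AHR CKO control, against 2.22, 1.48 and 1.65 FPKM in WT control. The groups overlapped (log2 change -0.01, limma adjusted p = 0.97). This level does not check the genotype labels, because neither the deleted exons nor the share of Ahr RNA that comes from microglia is known here.

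Cx3cr1, the fractalkine receptor of microglia (chromosome 9, 119901616 to 120069879, GRCm38), had the largest log2 difference of 25 tested genes of homeostatic microglia. Its level was 1.05, 9.60 and 0.801 FPKM in AHR CKO control, against 24.9, 24.4 and 22.6 FPKM in WT control. AHR CKO replicates 1 and 3 were far below every WT library and replicate 2 lay between. With that spread the difference missed the threshold (log2 change -2.88, SE 0.85, limma adjusted p = 0.0613), also after length correction (adjusted p = 0.109). It passed when the 6 control libraries were fitted alone (adjusted p = 0.0487). Under cuprizone the gene stood at 1.16, 22.7 and 29.6 FPKM in AHR CKO, against 69.4, 49.4 and 58.7 FPKM in WT, with 1 AHR CKO library again near 1 FPKM. Its ligand Cx3cl1, made by neurons, was at 212, 211 and 229 FPKM in AHR CKO control and 177, 169.7 and 238 FPKM in WT control (adjusted p = 0.498).

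The remaining microglial genes did not separate in this way. None of the 25 was called in either direction, and their median log2 change was -0.01 (-0.14 after length correction), beside -0.03 over all tested genes. The ADP receptor P2ry12 was at 20.8, 20.8 and 19.0 FPKM in AHR CKO control and 27.1, 23.9 and 22.5 FPKM in WT control (log2 change -0.26, adjusted p = 0.325). Its relative P2ry13 was at 6.89, 6.27 and 5.69 FPKM in AHR CKO control, against 9.15, 8.84 and 9.89 FPKM in WT control (log2 change -0.50, adjusted p = 0.0672). The groups did not overlap for either gene, nor for Csf1r, the receptor for the survival factor CSF1, at 30.2, 28.8 and 26.5 FPKM in AHR CKO control and 33.1, 35.4 and 33.3 FPKM in WT control (adjusted p = 0.484). Tmem119, a surface marker of microglia, was at 15.2, 15.7 and 16.8 FPKM in AHR CKO control and 19.4, 18.5 and 14.6 FPKM in WT control, and the phagocytic receptor Trem2 at 19.0, 19.7 and 24.1 FPKM in AHR CKO control and 18.9, 20.1 and 17.6 FPKM in WT control. Both overlapped between the genotypes. In all, 7 of the 25 genes were lower without overlap and 1 was higher, near the 22.5% of all tested genes that were lower in this way and below the 13.4% that were higher. None of 18 tested genes of disease-associated microglia was called either. Of 10 genes of border macrophages and infiltrating myeloid cells with deposited values, 1 reached the filter, the platelet chemokine Pf4. It was at 3.02, 2.15 and 2.24 FPKM in AHR CKO control and 0.585, 1.18 and 1.11 FPKM in WT control (adjusted p = 0.068).

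**Figure D2:**
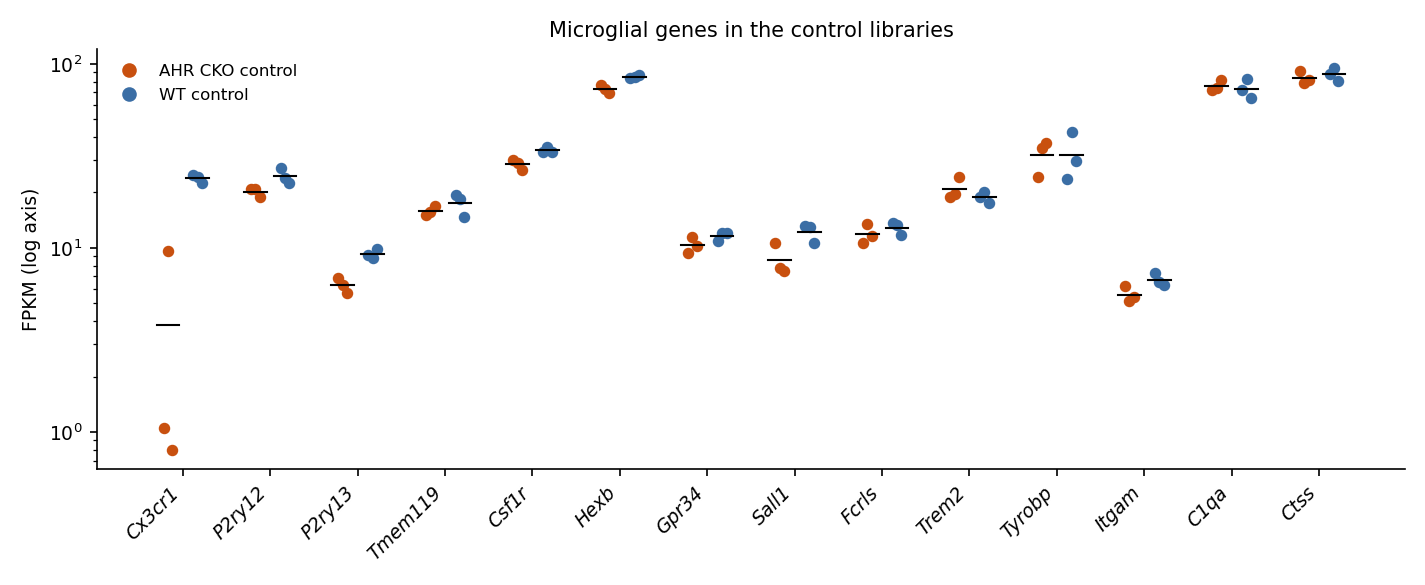
FPKM (log axis) of microglial genes in each control library, AHR CKO left and WT right of each position, with group means as bars. Cx3cr1 is at 0.801 to 9.60 FPKM in AHR CKO and 22.6 to 24.9 FPKM in WT, and the other genes shown lie much closer between genotypes.

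Among AHR partners and targets 1 of 12 tested genes was called, a share near the 6.94% of all tested genes called in either direction. Tiparp, which feeds back on AHR by ADP-ribosylating it, was at 9.0, 7.24 and 7.12 FPKM in AHR CKO control, against 4.93, 5.53 and 4.86 FPKM in WT control. Every AHR CKO library was above every WT library, and the gene passed both fits (log2 change 0.52, SE 0.11, limma adjusted p = 0.0294, after length correction 0.0275). The call was lost without AHR CKO replicate 2 or 3 or WT replicate 1 or 2 (largest adjusted p = 0.0955). Arnt, the partner of AHR in the nucleus, was at 11.3, 8.03 and 12.1 FPKM in AHR CKO control and 15.1, 14.6 and 11.4 FPKM in WT control, and the neuronal partner Arnt2 at 55.5, 52.0 and 44.9 FPKM in AHR CKO control and 68.9, 66.8 and 61.0 FPKM in WT control. Neither was called (adjusted p = 0.194 and 0.0902). Nqo1, a quinone reductase induced through AHR and NRF2, overlapped at 4.99, 5.19 and 3.32 FPKM in AHR CKO control and 3.49, 4.96 and 3.88 FPKM in WT control. Ahrr and Cyp1b1, well-known targets of the receptor, did not reach the filter. Cyp1b1 was at 0.818, 0.701 and 0.855 FPKM in AHR CKO control and 0.390, 0.767 and 0.670 FPKM in WT control, and Ahrr at 0.354, 0.105 and 0.361 FPKM in AHR CKO control and 0.179, 0.525 and 0.147 FPKM in WT control, with overlap in both. The GCGTG core bound by AHR and ARNT occurred on either strand in the 250 bases upstream of the start of 4 of 8 genes of this list with a promoter sequence, Arnt, Ptges3, Tiparp and Lpcat2, and in 46% of all 9958 tested genes with one. The upstream sequence of Tiparp, the 1 called gene, is shown with the core in capitals, read 5′ to 3′ on the gene's strand (chr3:65528197-65528446, plus strand, RefSeq promoter table, GRCm38.p6).
Tiparp: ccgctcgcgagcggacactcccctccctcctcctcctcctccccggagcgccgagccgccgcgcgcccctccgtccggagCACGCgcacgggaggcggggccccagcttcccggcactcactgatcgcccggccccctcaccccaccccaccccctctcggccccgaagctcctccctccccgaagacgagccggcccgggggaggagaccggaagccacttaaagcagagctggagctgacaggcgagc

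Most immediate early genes were higher in AHR CKO control. These genes are transcribed within minutes of neuronal firing, growth factor or stress signals. They encode transcription factors (the FOS, JUN, EGR and NR4A families), regulators of synapses (Arc), inhibitors of kinase signalling (Dusp1) and a kinase (Sik1). Of 20 tested members 13 were higher and none lower (65%, beside 1.59% of all tested genes), and 8 passed both fits. The groups were higher without overlap for 16 of the 20, beside 13.4% of all tested genes. The median log2 change was 0.87, and 0.85 after length correction. The summed level of the list was 866, 782 and 961 FPKM in AHR CKO control, against 517, 447 and 450.1 FPKM in WT control.

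Egr2, a zinc-finger factor with roles in myelinating Schwann cells and in neurons (chromosome 10, 67535475 to 67542188, GRCm38), had the largest log2 increase of the 59 genes. It was at 7.05, 5.89 and 6.02 FPKM in AHR CKO control, against 1.2, 1.09 and 0.999 FPKM in WT control. The lowest AHR CKO library was several times the highest WT library (ratio of means 5.76, log2 change 1.80, SE 0.15, limma adjusted p = 0.000537, 0.000464 after length correction). The call held without each control library in turn (largest adjusted p = 0.00728). Junb, a subunit of the AP-1 complex, was at 108, 87.6 and 117 FPKM in AHR CKO control and 35.6, 30.1 and 29.0 FPKM in WT control (log2 change 1.69, adjusted p = 0.00185). The kinase Sik1 was at 6.60, 6.20 and 5.03 FPKM in AHR CKO control and 2.58, 2.60 and 2.58 FPKM in WT control (log2 change 0.95, adjusted p = 0.00686). With Egr2 these were the 3 higher genes whose call held in all 6 leave-one-out fits.

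Egr4, a relative of Egr2, was at 53.4, 49.6 and 56.2 FPKM in AHR CKO control, against 14.9, 11.3 and 19.5 FPKM in WT control. Fos, the partner of JUN proteins in AP-1, was at 23.8, 21.3 and 26.3 FPKM in AHR CKO control, against 9.27, 7.82 and 4.02 FPKM in WT control. In both genes all AHR CKO libraries were above all WT libraries by more than the spread within either genotype (log2 change 1.77 and 1.68, adjusted p = 0.00924 and 0.0159). Arc, which controls AMPA receptor endocytosis, was at 146, 119.6 and 179 FPKM in AHR CKO control and 62.6, 54.8 and 33.6 FPKM in WT control (ratio of means 2.95, adjusted p = 0.0262). The nuclear receptor Nr4a1 was at 86.6, 64.7 and 92.7 FPKM in AHR CKO control and 34.3, 30.4 and 25.3 FPKM in WT control (ratio of means 2.71, adjusted p = 0.0213). WT control replicate 3 was lowest of all 6 libraries for Fos, Arc and Nr4a1. Fosl2, another AP-1 subunit, was at 9.01, 8.19 and 7.92 FPKM in AHR CKO control and 4.18, 3.69 and 4.35 FPKM in WT control and completed the 8 (adjusted p = 0.0222). Without AHR CKO replicate 3 all 5 calls of this group were lost, without WT replicate 2 all but that of Egr4, without WT replicate 1 those of Arc, Nr4a1 and Fosl2, and without AHR CKO replicate 2 those of Fos, Arc and Fosl2 (largest adjusted p from 0.0696 for Egr4 to 0.117 for Arc).

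Another 5 members passed the first fit and not the length-corrected one, namely Ier2, Dusp1, Fosb, Btg2 and Klf4, with length-corrected adjusted p between 0.0629 (Dusp1) and 0.0891 (Klf4). Each of these 5 calls was also lost without AHR CKO replicate 2 or 3 or WT replicate 1 or 2 (largest adjusted p up to 0.167, for Klf4). The list was not uniform. Jun was at 24.3, 25.2 and 32.8 FPKM in AHR CKO control and 27.5, 27.1 and 23 FPKM in WT control, and Nr4a2, a factor of dopaminergic and cortical neurons, at 8.47, 16.1 and 16.1 FPKM in AHR CKO control and 22.6, 10.5 and 19.3 FPKM in WT control. Both overlapped (adjusted p = 0.798 and 0.56). Egr1, the most abundant EGR factor here, was at 166, 168 and 162 FPKM in AHR CKO control and 116, 107 and 115 FPKM in WT control, without overlap, and passed the test only in the fit of the 6 control libraries alone (adjusted p = 0.115 in the 12-library fit and 0.0326 in that one).

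**Figure D3:**
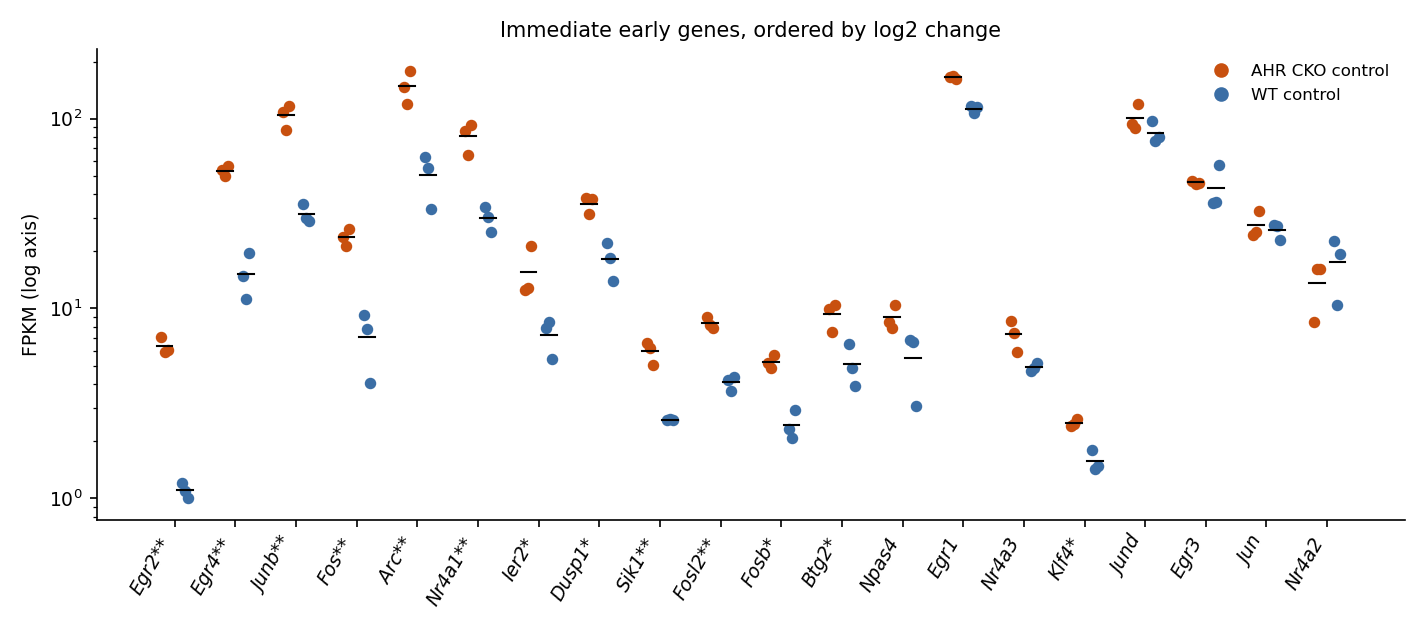
FPKM (log axis) of the 20 tested immediate early genes in each control library, AHR CKO left and WT right of each position, with group means as bars, ordered by log2 change. A single asterisk marks an adjusted p below 0.05 in the first fit only and a double asterisk in both fits. The 8 double-marked genes include Egr2, at 5.89 to 7.05 FPKM in AHR CKO and 0.999 to 1.2 FPKM in WT.

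The promoters of several immediate early genes are known to carry sites for CREB, the factor phosphorylated on calcium and cAMP signals. The core of that site, TGACG, was present on either strand in the 250 bases upstream of 11 of 15 members with a promoter sequence (73.3%, beside 27.3% of 9958 tested genes). It was in 4 of the 6 promoters of members past both fits and in 7 of the 9 others, of which Fosb, Dusp1, Btg2 and Klf4 were higher in the first fit. The full site TGACGTCA, which contains the core on both strands, was found upstream of Dusp1 and Btg2 alone in the list (2.81% of all tested genes). The CArG box of serum response factor was searched as CC, 6 bases of A or T, and GG, with no mismatch allowed. In that strict form it was found upstream of none of the 15 within this window and of 1.08% of all tested genes. Sites with a mismatch were not searched. The sequences of the 4 genes past both fits that hold the core are given 5′ to 3′ on the gene's strand with the core in capitals, where CGTCA is the core on the other strand. They are the plus strand of chr12:85473640-85473889 (Fos), the minus strand of chr8:84978749-84978998 (Junb), the minus strand of chr6:85513590-85513839 (Egr4) and the plus strand of chr15:101266596-101266845 (Nr4a1), from the RefSeq promoter table (GRCm38.p6).
Fos: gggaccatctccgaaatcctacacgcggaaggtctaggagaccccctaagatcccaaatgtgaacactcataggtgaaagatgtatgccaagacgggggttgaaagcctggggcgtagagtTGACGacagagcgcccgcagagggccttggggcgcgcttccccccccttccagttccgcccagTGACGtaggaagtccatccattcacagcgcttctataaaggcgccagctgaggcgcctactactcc
Junb: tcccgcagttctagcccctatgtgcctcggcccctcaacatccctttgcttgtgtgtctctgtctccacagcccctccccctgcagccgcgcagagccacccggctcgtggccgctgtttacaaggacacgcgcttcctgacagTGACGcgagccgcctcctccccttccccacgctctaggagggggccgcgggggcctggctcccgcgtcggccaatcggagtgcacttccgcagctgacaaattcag
Egr4: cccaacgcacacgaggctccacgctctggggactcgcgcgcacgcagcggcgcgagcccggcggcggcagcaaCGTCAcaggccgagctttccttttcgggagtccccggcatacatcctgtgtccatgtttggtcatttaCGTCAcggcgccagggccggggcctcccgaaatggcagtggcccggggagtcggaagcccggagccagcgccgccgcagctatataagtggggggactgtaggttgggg
Nr4a1: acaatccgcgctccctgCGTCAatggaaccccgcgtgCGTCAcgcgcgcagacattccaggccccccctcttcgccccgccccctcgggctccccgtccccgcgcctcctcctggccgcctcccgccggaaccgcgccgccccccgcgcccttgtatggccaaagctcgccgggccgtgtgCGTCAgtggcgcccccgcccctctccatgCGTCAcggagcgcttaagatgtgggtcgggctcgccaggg

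Dusp5, Klf2 and Apold1 were also higher past both fits. Dusp5, a nuclear phosphatase of ERK, was at 8.37, 8.06 and 10.8 FPKM in AHR CKO control and 2.92, 3.21 and 4.21 FPKM in WT control (log2 change 1.18, adjusted p = 0.0115). Klf2, a flow-responsive factor of endothelium and lymphocytes, was at 11, 8.91 and 11.8 FPKM in AHR CKO control and 4.82, 3.76 and 4.43 FPKM in WT control (log2 change 1.11, adjusted p = 0.0151). The endothelial gene Apold1 was at 3.97, 3.25 and 3.91 FPKM in AHR CKO control and 1.43, 1.14 and 1.22 FPKM in WT control (log2 change 1.06, adjusted p = 0.0159). Every AHR CKO library was above every WT library for all 3. The calls were lost without AHR CKO replicate 3 or WT replicate 1, and those of Klf2 and Apold1 also without WT replicate 2 (largest adjusted p from 0.0712 for Dusp5 to 0.0859 for Apold1).

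The pseudogene Pisd-ps1 was at 27.1, 29.8 and 34.8 FPKM in AHR CKO control and 12.8, 12.5 and 12.6 FPKM in WT control (adjusted p = 0.0151), a call lost without AHR CKO replicate 2 or 3 or WT replicate 1 or 2 (largest adjusted p = 0.0807). It resembles its parent gene Pisd and other copies, and the sources used do not say how reads were shared among them. The rest of the 23 were the kinase gene Dyrk3, the histone demethylase gene Kdm6b, the activin subunit gene Inhbb, Lypd1, Myh7, Adarb2 and Ehbp1l1, all with log2 changes between 0.32 (Ehbp1l1) and 0.71 (Dyrk3), besides Per1 and 2 collagen genes described next.

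Per1, a clock gene that is also induced by glucocorticoids and CREB, was at 32.0, 29.4 and 30.5 FPKM in AHR CKO control, against 16.1, 19.2 and 17.1 FPKM in WT control. The genotypes were well apart (log2 change 0.78, SE 0.11, limma adjusted p = 0.0151, 0.00921 after length correction), and the call was lost without AHR CKO replicate 3 or WT replicate 1 (largest adjusted p = 0.0712). It was the 1 higher gene among 20 tested clock genes, beside 1.59% of all tested genes. Clock and Nr1d2 of this list were lower in the first fit only, beside 5.36% of all tested genes. Of 15 tested glucocorticoid-responsive genes 4 were higher (Per1, Sgk1, Ddit4 and Nfkbia) and 3 lower (Zbtb16, Plin4 and Hif3a), beside 1.59% and 5.36% of all tested genes. Only Per1 and Zbtb16 of these 7 passed both fits. Plin4 and Hif3a were below 1 FPKM in every AHR CKO library and reached the filter through the WT libraries alone. Both could therefore only appear as lower. Sgk1, a kinase gene of the glucocorticoid response, was at 136, 141 and 123 FPKM in AHR CKO control and 46.5, 112 and 44.3 FPKM in WT control, with WT replicate 2 close to the AHR CKO libraries (adjusted p = 0.0446, 0.0864 after length correction). Zbtb16, a zinc-finger repressor known as PLZF, was at 3.86, 4.48 and 3.36 FPKM in AHR CKO control and 8.18, 11.1 and 8.19 FPKM in WT control and passed both fits (log2 change -1.05, adjusted p = 0.0183). Its call was lost without AHR CKO replicate 2 or 3 or WT replicate 1 or 2 (largest adjusted p = 0.0923).

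Some genes of fibroblasts and meninges, among them both chains of type I collagen, were higher in AHR CKO control. Of 12 tested, 5 were called higher (41.7%, beside 1.59% of all tested genes) and none lower, 2 of them past both fits, and 9 were higher without overlap (beside 13.4% of all tested genes), with a median log2 change of 0.83 (0.82 after length correction). Col1a1, a chain of type I collagen, was at 2.70, 3.03 and 2.74 FPKM in AHR CKO control, against 1.06, 1.15 and 1.08 FPKM in WT control. Its partner chain Col1a2 was at 3.71, 3.65 and 3.25 FPKM in AHR CKO control, against 1.54, 1.58 and 1.18 FPKM in WT control. All AHR CKO libraries were above all WT libraries for both (adjusted p = 0.0217 and 0.0183). Igfbp2, an insulin-like growth factor binding protein of meninges and choroid plexus, was at 52.9, 76.7 and 40.6 FPKM in AHR CKO control and 16.4, 11.7 and 12.2 FPKM in WT control (log2 change 1.97, adjusted p = 0.0262, 0.0614 after length correction). The retinoic acid enzyme gene Aldh1a2 and the proteoglycan gene Fmod were the other 2. The call of each of these 5 was lost without AHR CKO replicate 2 or 3 or WT replicate 1 or 2 (largest adjusted p from 0.0807 for Col1a2 to 0.133 for Fmod).

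Choroid plexus genes, from the ventricular epithelium that makes cerebrospinal fluid, varied widely between the AHR CKO libraries. Transthyretin, Ttr, the thyroid hormone carrier of this epithelium, was at 1838, 3497 and 406 FPKM in AHR CKO control, against 40.1, 144 and 81.7 FPKM in WT control. The sum of the list was 2209, 4089 and 540.3 FPKM in AHR CKO control, against 216, 388 and 239 FPKM in WT control. AHR CKO replicate 2 was highest, replicate 3 was close to the WT libraries, and the sums did not overlap. None of 11 tested genes was called (Ttr adjusted p = 0.0589), all 11 were on the higher side, and 5 did not overlap (beside 13.4% of all tested genes), with a median log2 change of 1.62 (1.68 after length correction). Among these 5, Aqp1 was at 0.193, 0.471 and 0.318 FPKM in WT control and reached the filter through the AHR CKO libraries alone. Its groups could therefore not overlap, and it could only appear as higher. Igfbp2 and Slc13a4 of the meningeal list also had their highest value in AHR CKO replicate 2, at 76.7 and 9.86 FPKM. A part of choroid plexus tissue in their levels was not tested. Col1a1 and Col1a2 were nearly equal in the 3 AHR CKO libraries, and a part of choroid plexus tissue in their levels was not tested either.

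Transcripts of red blood cells were lower in AHR CKO control. The α-globin gene Hba-a1 was at 6.13, 3.99 and 4.15 FPKM in AHR CKO control, against 78.1, 86.5 and 113 FPKM in WT control. Its near-identical copy Hba-a2 was at 0.572, 0.00556 and 0.0226 FPKM in AHR CKO control, against 4.74, 28.0 and 24.6 FPKM in WT control. Every AHR CKO library was below every WT library for both, and since the copies share most of their sequence the split between them is uncertain. Alas2, the erythroid enzyme of heme synthesis, was listed at 0 in the 3 AHR CKO libraries and was at 1.76, 1.40 and 1.36 FPKM in WT control. All 3 tested genes of the list were called lower (adjusted p = 0.0294 for Hba-a1, 0.0115 for Hba-a2 and 0.0267 for Alas2), Hba-a2 and Alas2 past both fits, and the summed level was 6.70, 4.0 and 4.17 FPKM in AHR CKO control and 84.6, 116 and 139 FPKM in WT control. The call of Hba-a2 was lost without AHR CKO replicate 3, and those of Hba-a1 and Alas2 also without AHR CKO replicate 2 or WT replicate 1 or 2 (largest adjusted p = 0.0712 for Hba-a2 and 0.12 for Hba-a1). Hba-a2 and Alas2 were below 1 FPKM in all 3 AHR CKO libraries and reached the filter through the WT libraries alone. Their groups could therefore not overlap, and these genes could only appear as lower. A zero needs care in this table. Between 64 and 80 genes were listed at 0 in each AHR CKO control library and none in any WT control library, although the 172 genes concerned had a median of only 0.152 FPKM in WT and 7 of them were tested.

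**Figure D4:**
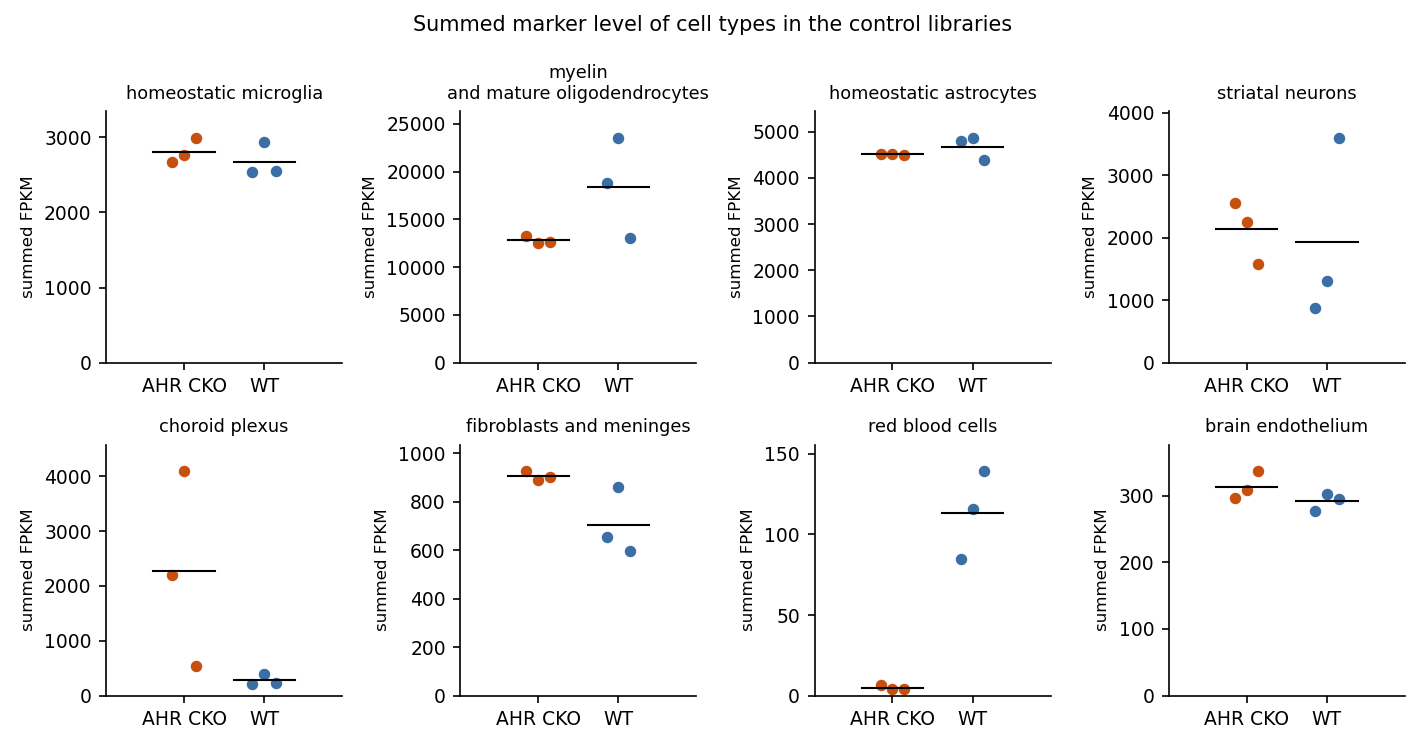
Summed FPKM of 8 marker lists in each control library, AHR CKO left and WT right, with group means as bars and axes from 0. Red blood cell genes sum to 4.0 to 6.70 FPKM in AHR CKO and 84.6 to 139 FPKM in WT, choroid plexus genes are high in 2 AHR CKO libraries, and the myelin sum of WT replicate 3 lies among the AHR CKO values.

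Among the other large decreases past both fits were those of Lnpep, Hipk2 and Acp1. Lnpep, the insulin-regulated aminopeptidase that travels with GLUT4, was at 3.16, 2.33 and 1.2 FPKM in AHR CKO control, against 6.12, 7.11 and 9.09 FPKM in WT control (log2 change -1.42, adjusted p = 0.0217). Hipk2, a nuclear kinase that acts on p53 and TGF-β targets, was at 14.6, 11.7 and 9.15 FPKM in AHR CKO control, against 31.9, 37.4 and 28.7 FPKM in WT control (log2 change -1.41, adjusted p = 0.0144). Both have long transcripts (12052 and 7684 nt), and removing the length trend reduced their log2 changes to -1.06 and -1.15, still past the threshold. Acp1, a low molecular weight protein tyrosine phosphatase, was at 8.02, 8.29 and 7.92 FPKM in AHR CKO control and 21.9, 20.5 and 21.8 FPKM in WT control (log2 change -1.31, adjusted p = 0.0144). Its values were close within each genotype, with means of 8.07 ± 0.192 in AHR CKO control and 21.4 ± 0.760 FPKM in WT control (SD, n = 3 each). The calls of all 3 genes were lost without AHR CKO replicate 3 or WT replicate 1, those of Lnpep and Hipk2 also without WT replicate 2, and that of Lnpep without AHR CKO replicate 2 (largest adjusted p = 0.0712 for Acp1 and 0.0923 for Lnpep).

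Nkx2-9, a homeodomain factor of the ventral neural tube, was at 0.605, 0.617 and 0.0952 FPKM in AHR CKO control and 2.85, 2.39 and 2.13 FPKM in WT control (log2 change -1.28, adjusted p = 0.0151). Hmbox1, a homeobox factor that binds telomeres, was at 4.45, 3.52 and 2.63 FPKM in AHR CKO control and 7.74, 9.09 and 8.04 FPKM in WT control (log2 change -1.05, adjusted p = 0.016). Plcl1, a phospholipase C-like protein without catalytic activity that binds inositol phosphates, was at 11.6, 9.64 and 7.96 FPKM in AHR CKO control and 23.2, 25.1 and 16.6 FPKM in WT control (log2 change -1.07, adjusted p = 0.0151). None of the AHR CKO libraries reached the lowest WT library for these 3 genes. For Nkx2-9 this was fixed by the filter. The gene was below 1 FPKM in every AHR CKO library and reached the filter through the WT libraries alone. Tnfaip6, a hyaluronan-binding protein induced by inflammation, was at 20.6, 19.0 and 14.7 FPKM in AHR CKO control and 37.6, 50.01 and 26.6 FPKM in WT control (adjusted p = 0.0248). Gatm, the first enzyme of creatine synthesis and abundant in oligodendrocytes, was at 136, 127 and 114 FPKM in AHR CKO control and 248, 318 and 181 FPKM in WT control (adjusted p = 0.0273). In both genes WT replicate 2 was highest and WT replicate 3 nearest to the AHR CKO libraries. The 5 calls of this group were lost without AHR CKO replicate 3 or WT replicate 1 or 2, and all but that of Nkx2-9 without AHR CKO replicate 2 (largest adjusted p from 0.0712 for Nkx2-9 to 0.12 for Gatm).

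Most of the other decreases past both fits were of less than 2-fold. Hint3, a nucleotide hydrolase, was at 11.8, 11.2 and 10.9 FPKM in AHR CKO control and 17.8, 19.5 and 21.5 FPKM in WT control (log2 change -0.74, adjusted p = 0.00607) and was the 1 lower gene whose call held without each library in turn (largest adjusted p = 0.0423). Kcna1, the juxtaparanodal potassium channel of myelinated axons, was at 31.3, 29.6 and 28.4 FPKM in AHR CKO control and 43.9, 45.8 and 42.0 FPKM in WT control (log2 change -0.55, adjusted p = 0.0217). It was the 1 gene past both fits among 20 tested genes of axons and nodes, beside 0.45% of all tested genes with a length. Kcna2 and Cntn2 of this list were lower in the first fit only. The length-corrected adjusted p of Kcna1, 0.0495, was close to the threshold. Its call was lost without AHR CKO replicate 2 or 3 or WT replicate 1 or 2 (largest adjusted p = 0.0949). The RNA-binding proteins Fxr1 and Sfpq, the pocket protein Rbl2, the autophagy protease Atg4c, the E3 ligases Rnf13 and Trim59, the desaturase Fads6, the metalloproteinase Mmp16 and the RNase P subunit Pop4 were of the same kind, with log2 changes between -0.89 (Trim59) and -0.38 (Fxr1).

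Few myelin genes were called, all of them lower in AHR CKO control, and the WT libraries were widely spread. Of 30 tested genes of myelin and mature oligodendrocytes, 4 were called lower (Aspa, Ermn, Gjc3 and Anln, 13.3%, beside 5.36% of all tested genes), none higher and none past both fits. All 30 had a negative log2 change, with a median of -0.50 (-0.59 after length correction), and 15 were lower without overlap, beside 22.5% of all tested genes. The summed level was 13309, 12490.3 and 12631 FPKM in AHR CKO control, against 18785, 23476 and 13065 FPKM in WT control. The AHR CKO libraries were close to each other, WT replicates 1 and 2 were well above them, and WT replicate 3, the library with the highest striatal sum, was near them. The part of tissue composition in this difference was not tested.

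Ermn, a cytoskeletal protein of late oligodendrocytes, was at 64.4, 57.8 and 51.7 FPKM in AHR CKO control and 115, 149 and 84.4 FPKM in WT control (log2 change -0.96, adjusted p = 0.0346, 0.0714 after length correction). Anln, an actin-binding scaffold of septins, was at 17.6, 15.1 and 15.2 FPKM in AHR CKO control and 36.2, 47.8 and 27.1 FPKM in WT control (log2 change -1.13, adjusted p = 0.0273, 0.0595 after length correction). Neither gene overlapped between genotypes, and both calls were lost without AHR CKO replicate 2 or 3 or WT replicate 1 or 2 (largest adjusted p = 0.135 and 0.118). Myelin basic protein, Mbp, was at 6367, 6030.2 and 6505 FPKM in AHR CKO control and 8723, 10912 and 6000.4 FPKM in WT control, and Opalin at 123, 123 and 120.1 FPKM in AHR CKO control and 147, 175 and 90.6 FPKM in WT control. Both overlapped through WT replicate 3 (adjusted p = 0.225 and 0.742).

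A single regulator of the lineage was lower past both fits. Zfp536, a zinc-finger repressor, was at 2.79, 2.37 and 1.49 FPKM in AHR CKO control, against 6.90, 6.94 and 5.12 FPKM in WT control, and was the 1 of 13 tested lineage factors past both fits (log2 change -1.20, SE 0.17, adjusted p = 0.0151). Its call was lost without AHR CKO replicate 3 or WT replicate 1 or 2 (largest adjusted p = 0.0712). Myrf, the master regulator of myelin genes, was at 24.1, 21.7 and 19.8 FPKM in AHR CKO control and 38.6, 47.6 and 29.0 FPKM in WT control (adjusted p = 0.0322, 0.0964 after length correction). St18, another zinc-finger gene, was called lower in the first fit only. Of all tested genes 5.36% were lower in the first fit, and of those with a length 0.275% were lower past both. Of 18 tested genes of oligodendrocyte precursors, Tnr and Sox6 (12202 and 8668 nt) were lower in the first fit and none past both. The share beside them was 5.36% of all tested genes, and 16.5% of the genes with the longest transcripts. The median log2 change of the list was -0.26, and -0.05 after length correction. Pdgfra, the growth factor receptor of precursors, was at 11.7, 11.6 and 9.23 FPKM in AHR CKO control and 13.9, 14.0 and 11.1 FPKM in WT control (adjusted p = 0.2).

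Several lists that differed in the first fit had very short or very long transcripts and had medians nearer 0 in the second. The 75 nuclear genes of the respiratory chain have short transcripts (median 1141 nt). Of these, 4 were called higher (Ndufa11, Ndufa13, Ndufb6 and Uqcrq), a share near the 4.68% of all genes with the shortest transcripts. Without overlap 62 were higher, beside 13.4% of all tested genes. That count is not corrected for length, and the share among all genes with the shortest transcripts is not given here. The median log2 change of 0.38 became 0.19, with none past both fits. Ndufb6, a subunit of complex I, was at 109.9, 124 and 129 FPKM in AHR CKO control and 65.9, 77.7 and 82.1 FPKM in WT control (adjusted p = 0.0271, 0.077 after length correction). The median of 80 cytosolic ribosomal proteins was 0.02 after correction and 0.22 before it, and that of 31 proteasome genes was 0.04 after and 0.17 before. In the opposite direction, 26 chromatin regulators with long transcripts (median 9061 nt) held 6 genes called lower, beside 16.5% of all genes with the longest transcripts, and a median of -0.28 that became 0.07. Ncor1, a nuclear receptor corepressor, was at 24.1, 22.9 and 20.9 FPKM in AHR CKO control and 32.5, 31.1 and 30.6 FPKM in WT control (adjusted p = 0.029, 0.203 after length correction).

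Phagocytosis genes, a function named in the title of the series, held 4 calls among 24 tested, Gas6 higher and Megf10, Itgav and Dock1 lower, beside 6.94% of all tested genes called in either direction, and none past both fits (median log2 change -0.11, -0.04 after correction). Gas6, the bridging ligand of the TAM receptors, was at 55.4, 64.8 and 53.8 FPKM in AHR CKO control and 43.9, 41.7 and 42.9 FPKM in WT control (adjusted p = 0.035, 0.0862 after length correction). Megf10, an engulfment receptor of astrocytes, was at 8.03, 7.81 and 6.23 FPKM in AHR CKO control and 11.8, 13.4 and 9.49 FPKM in WT control (adjusted p = 0.0333, 0.139 after length correction). The groups of both genes did not overlap. Of 13 tested genes of MHC class I and the immunoproteasome none was called, all 13 had a positive log2 change and 6 were higher without overlap, beside 13.4% of all tested genes (median 0.26, 0.18 after correction). Tap1, which pumps peptides into the endoplasmic reticulum, was at 2.35, 2.44 and 2.03 FPKM in AHR CKO control and 1.41, 1.38 and 1.35 FPKM in WT control (adjusted p = 0.0687). None of 24 interferon-response genes, 17 reactive astrocyte genes, 24 cholesterol synthesis genes, 17 endothelial genes or 25 genes of excitatory neurons and synapses was called. Apolipoprotein E, Apoe, was at 2976, 3070.4 and 3585 FPKM in AHR CKO control and 2247, 2437 and 1879.7 FPKM in WT control, without overlap and not called (adjusted p = 0.0961, 0.258 after length correction).

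**Figure D5:**
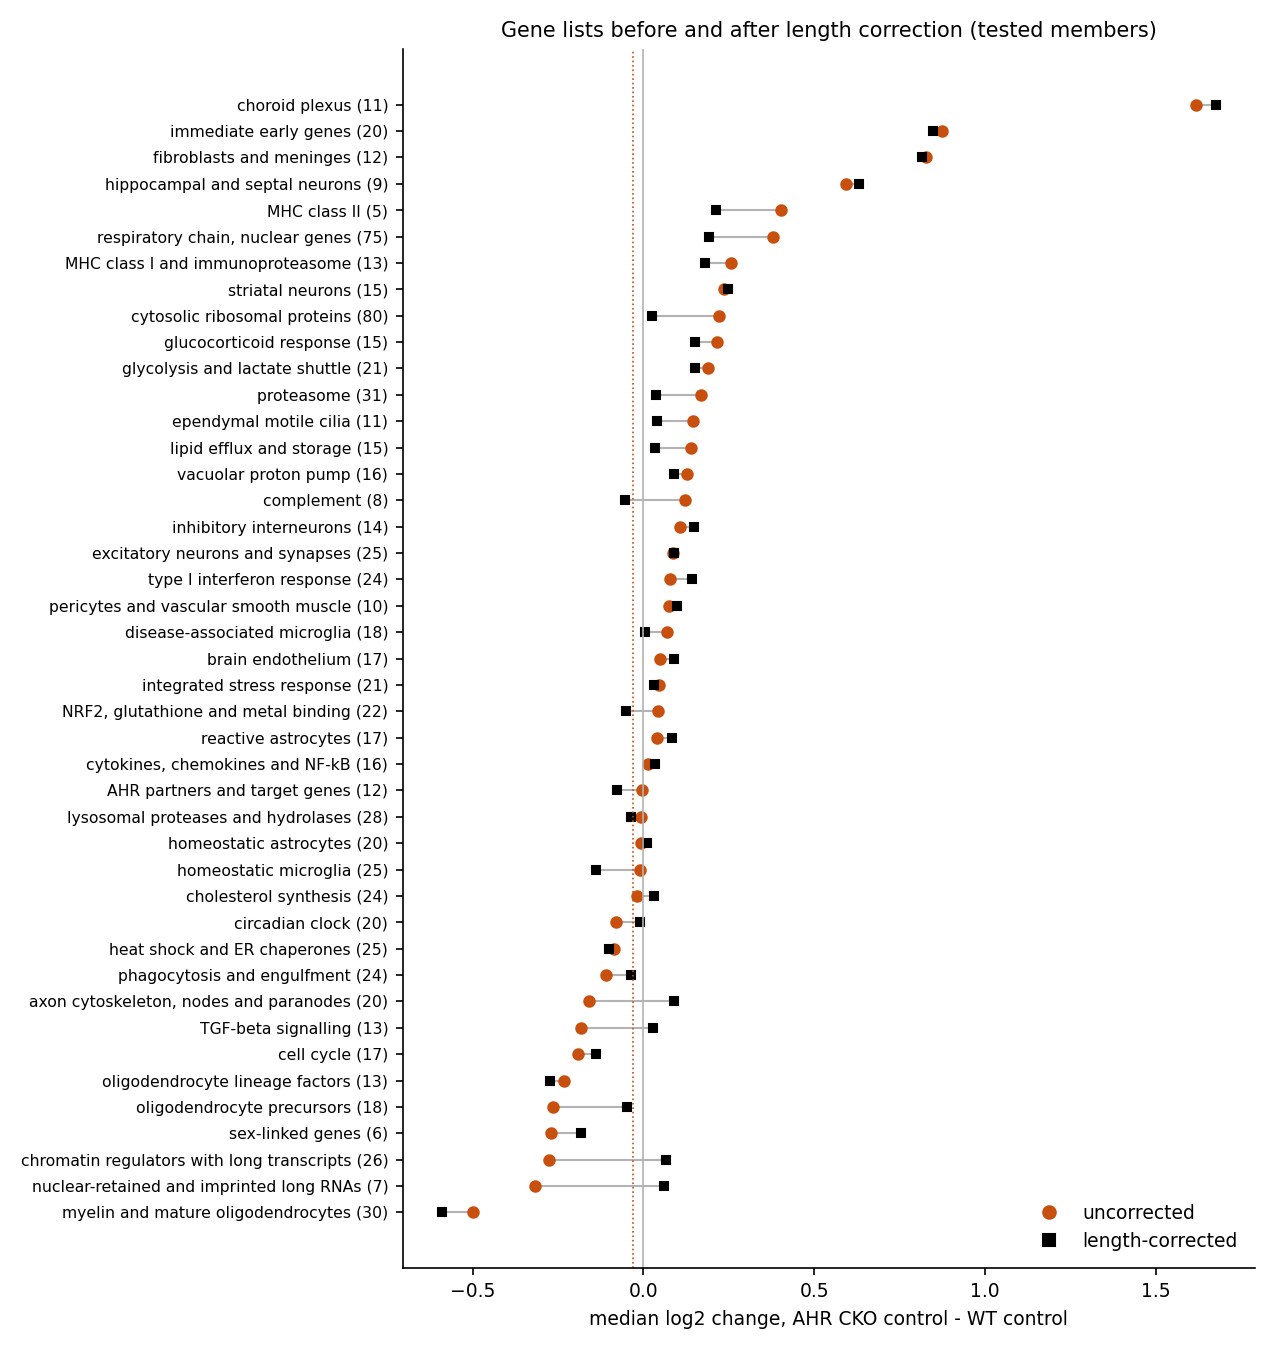
Median log2 difference (AHR CKO control minus WT control) of each gene list with at least 5 tested members, before (orange circles) and after (black squares) removal of the length trend, with the number tested in brackets and the median of all tested genes as a dotted line. The choroid plexus, immediate early, meningeal and myelin medians keep their size (1.68, 0.85, 0.82 and -0.59 after correction), while those of ribosomal proteins and long chromatin regulators move towards 0.

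A conditional allele can carry sequence of its founder strain around it, so genes near Ahr and near Cx3cr1 were counted. Within 10 Mb of Ahr 53 genes were tested and 4 were called, all lower (7.55%, beside 6.94% of all tested genes in either direction). Acp1 was the 1 of them past both fits. Within 10 Mb of Cx3cr1 108 genes were tested, 3 were higher and 4 lower (6.48%), and none passed both fits. On chromosome 12 as a whole, which carries Ahr, 7 of 482 tested genes passed both fits (1.45%, beside 0.45% of all tested genes with a length). Of these, Fos was higher and Acp1, Nkx2-9, Dhrs7, Ap4s1, Fam228b and 2310015A10Rik were lower. The sources used do not name the origin of the alleles.

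The same genotypes were compared under cuprizone, in libraries shared with neither control group. There 2728 genes (20.6%) were called in the first fit, which is not corrected for length. Of the 59 genes past both fits without cuprizone, 52 had the same sign under cuprizone (beside 74.8% of all tested genes) and 28 were called in the same direction, and the 2 comparisons share the length trend. They also share 1 estimate of the spread from all 12 libraries, so the 28 calls are not independent of the choice of the 59. Hipk2 was at 3.63, 5.81 and 6.85 FPKM in AHR CKO cuprizone and 14.2, 13.3 and 11.8 FPKM in WT cuprizone (log2 change -1.17, adjusted p = 0.00543). Junb was at 111, 140.5 and 133 FPKM in AHR CKO cuprizone and 58.2, 61.0 and 89.7 FPKM in WT cuprizone (log2 change 0.89, adjusted p = 0.00726). Both kept the direction they had without cuprizone.

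A test of the difference between the genotype effects with and without cuprizone called 5 of 13220 genes (0.0378%, with 1284 at an unadjusted p below 0.05). After length correction the same test called 9 genes. Egr2 was the 1 of the 59 among the 5 genes called without the correction (limma adjusted p = 0.0312). Under cuprizone Egr2 was at 5.93, 7.55 and 8.86 FPKM in AHR CKO and 6.11, 5.52 and 7.98 FPKM in WT, which overlapped. The WT control libraries, near 1 FPKM, were therefore the low group among 4. For the immediate early list the median log2 change was 0.14 under cuprizone, beside 0.87 without it, and the difference between the genotype effects was not called for any other tested member. For myelin genes the median was 0.37 under cuprizone, beside -0.50 without it.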

How the data were processed

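RNA of mouse corpus callosum was extracted with a Qiagen RNeasy kit and made into libraries with a SMARTER kit, per the labels. The authors deposited 1 table of FPKM values for 15584 genes in 12 libraries, and the submitters' processing notes name GRCm38 and mm10 as builds. The sources used here name no aligner, counter, annotation or filter. FPKM carries no counts, so no count test was run, and it does not remove a length trend that differs between libraries.

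The 12 libraries entered 1 linear model with 4 group means (limma 3.58.1, R 4.3.3, empirical Bayes moderation with an intensity trend) on log2(FPKM + 1), two-sided, with Benjamini-Hochberg adjustment over 13220 genes. Folds called ratios of means use FPKM. Longest transcript lengths came from GENCODE M21 (GRCm38) and covered 99.2% of tested genes. For the length check a natural spline of 5 degrees of freedom on log2 length was fitted to each library's deviations from the gene mean and subtracted. Date-like entries stand in place of 25 gene symbols, and these genes are not named. The scripts were tested on simulated data.

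The members, the 46 gene lists and the tests were chosen with earlier results of these data known. Named genes are Ahr, Arnt, Cx3cr1, Cyp1b1, Tiparp, Nqo1 and Ahrr, the 12 largest increases and 12 largest decreases past both fits without overlap, up to 3 members of each list, and genes past both fits within 10 Mb of Ahr or Cx3cr1. The rule also asked that a call hold in all 6 leave-one-out fits, which only 3 higher and 1 lower gene met, so that condition was dropped as the rule provides. Further members of the lists were chosen after their values were seen. A result on 1 withheld gene is not reported here.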

Additional observations from a re-analysis of the deposited data

Results flagged for a closer look

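For Egr2 the genotype effect differed between treatments by a test of the difference itself. The log2 effect under cuprizone minus that without it was -1.64 (limma adjusted p = 0.0312 over 13220 genes). Egr2 was at 5.93, 7.55 and 8.86 FPKM in AHR CKO cuprizone and 6.11, 5.52 and 7.98 FPKM in WT cuprizone, and at 7.05, 5.89 and 6.02 FPKM in AHR CKO control and 1.2, 1.09 and 0.999 FPKM in WT control. All 3 WT control libraries were below the 9 others.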

How the results depend on the processing

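None of the called genes among the 68 named ones, and none of the 59 past both fits, changed direction under an alternative that tested it. Leaving out 1 library could not change the direction of the 59, whose groups do not overlap. The direction of the other called genes was not followed. Of the 59, 42 kept a call with length and GC correction and 45 with only the 6 control libraries. With the replicate block 30 kept it, and 22 with the block and the length correction. Of the 68, 15 changed sign, none of them called, and 11 of 45 list medians did so, each with a length or length and GC correction only. In the first fit the counts of higher and lower genes (210 and 708) became 128 and 458 with no filter, 27 and 37 with the length correction, 22 and 29 with length and GC correction, 118 and 252 with only the 6 control libraries, 1692 and 2850 with sample quality weights, and 26 and 29 with a minimum of 2-fold. Higher genes were 22.9% of the calls, and 42.2% with the length correction, 43.1% with length and GC correction and 37.3% with sample quality weights. The counts past both fits (23 and 36) became 713 and 1106 with sample quality weights and 8 and 8 with a minimum of 2-fold, and the lower count became 22 at a pseudocount of 0.1, 67 with quantile normalization and 15 with only the 6 control libraries. Leaving out 1 library gave 3 to 216 higher and 1 to 715 lower genes, and 3 to 123 and 1 to 378 past both fits, with the low ends without AHR CKO replicate 2 or 3 and the high ends without WT replicate 3. The cause was not tested. A minimum mean of 5 FPKM, 2 other scalings and a prior variance with no trend kept these counts within 1.5 times. Same-numbered libraries did not deviate together (r = -0.219, -0.0462 and -0.279 across genes), and no library correlated best with its own number. The fit with the replicate block gave 21 higher and 51 lower genes, 10 and 13 past both fits, and with the length correction 14 and 14. Depth limits genes near 1 FPKM, and no interval was given because the files used hold no counts.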
